A study of Homo sapiens with 6 samples.

Results

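The 34 genes described here encode proteins of homologous recombination and of the Fanconi anemia pathway. They were taken as a list of named protein-coding genes of GRCh38 in RefSeq and are 34 of 19821 protein-coding genes. No measured value was used as a filter, but earlier results of these data were known when the list was chosen. R-loops, structures made of an RNA-DNA hybrid and the displaced DNA strand, were mapped in IMR90 cells, a wild-type line of human lung fibroblasts of embryonic origin, cultured at 2% oxygen in DMEM with 10% serum. The assay was MapR, a form of CUT&RUN whose enzyme, a fusion of RNase H and micrococcal nuclease (RH-MNase), cuts and releases chromatin at RNA-DNA hybrids. The states were senescence after ectopic expression of Ras (construct and promoter not given in the sources used here), quiescence after starvation (medium and length not given there), and proliferation with a control vector. Each state had 1 RH-MNase library and 1 peak list, and the libraries made with the background enzyme GST-MNase were not analysed here.

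Homologous recombination repairs DNA double-strand breaks by copying an intact sister chromatid: broken ends are resected, BRCA proteins and their partners prepare the single strand to invade the intact copy, and the joined molecules are later taken apart. The Fanconi anemia pathway repairs interstrand crosslinks: a core complex attaches ubiquitin to FANCD2 and FANCI, nucleases cut beside the crosslink, and recombination finishes the repair. Several of these proteins, among them BRCA1, BRCA2 and FANCD2, are also known to limit R-loops, and many of the genes are expressed mainly in cycling cells.

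There were 85564 peaks in senescent, 9736 in quiescent and 101802 in proliferating cells, with median widths of 468, 352 and 550 bp, and they covered 54.1, 4.12 and 85.4 Mb. The lists therefore differ in size and width over the whole genome, and what part of any difference at these genes comes with that was not tested beyond the comparison with all genes and the shortened lists below. The number of reads is unknown and no state was repeated, so no test between states is possible and every difference is between single libraries. The score of a peak is the authors' own, and it is used only to rank peaks within a list. Of 7 fibroblast marker genes 5 had a gene-end peak in senescent, 3 in quiescent and 6 in proliferating cells. Of 3 epithelial markers 3, 1 and 3 had one, of 2 endothelial markers 0, 0 and 1, of 2 leukocyte markers 1, 0 and 1, and the liver gene ALB had no peak in any list. Peaks are not expression, and these counts do not set fibroblast genes apart from the others.

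The promoters of 5 genes are shown because they carry the contrasts described below, each from 250 bases before to 50 bases after the annotated start, from RefSeq on GRCh38.p14. FANCL (chr2:58241276-58241575, minus strand) had a peak over its start in proliferating cells only, and BLM (chr15:90717096-90717395, plus strand) had in senescent cells a peak of 199 bp that ended 188 bp before its start. ERCC4 (chr16:13919904-13920203, plus strand) had more of its start window under peaks in senescent cells, RAD50 (chr5:132556727-132557026, plus strand) had the largest quiescent coverage of the start window, and RAD51B (chr14:67823291-67823590, plus strand) had no peak at this start in any state. Capitals mark matches, on either strand, to CCGGAAG (the core bound by ETS factors) or CCAAT (the CCAAT box), and both reverse complements.
FANCL: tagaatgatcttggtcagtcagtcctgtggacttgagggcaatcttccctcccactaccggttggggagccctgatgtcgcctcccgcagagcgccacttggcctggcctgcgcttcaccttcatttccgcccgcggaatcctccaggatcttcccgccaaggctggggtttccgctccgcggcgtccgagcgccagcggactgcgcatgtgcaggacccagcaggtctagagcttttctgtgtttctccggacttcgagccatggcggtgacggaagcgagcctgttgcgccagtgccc
BLM: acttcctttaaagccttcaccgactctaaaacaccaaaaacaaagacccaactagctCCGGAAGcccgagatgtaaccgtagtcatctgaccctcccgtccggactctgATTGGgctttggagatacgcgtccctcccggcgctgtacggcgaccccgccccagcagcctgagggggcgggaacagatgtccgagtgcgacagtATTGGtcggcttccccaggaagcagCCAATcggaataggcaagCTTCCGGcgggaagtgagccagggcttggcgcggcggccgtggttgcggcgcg
ERCC4: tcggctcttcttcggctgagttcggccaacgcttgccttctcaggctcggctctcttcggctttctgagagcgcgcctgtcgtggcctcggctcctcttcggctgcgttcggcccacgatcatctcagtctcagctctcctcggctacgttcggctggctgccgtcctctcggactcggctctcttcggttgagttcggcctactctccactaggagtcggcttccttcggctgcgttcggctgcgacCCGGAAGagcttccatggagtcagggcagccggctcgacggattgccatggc
RAD50: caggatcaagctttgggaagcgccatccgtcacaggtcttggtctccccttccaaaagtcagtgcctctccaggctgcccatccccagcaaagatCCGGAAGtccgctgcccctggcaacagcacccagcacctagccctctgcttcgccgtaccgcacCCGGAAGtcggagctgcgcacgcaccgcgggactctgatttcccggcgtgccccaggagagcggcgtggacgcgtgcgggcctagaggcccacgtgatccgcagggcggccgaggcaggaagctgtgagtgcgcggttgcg
RAD51B: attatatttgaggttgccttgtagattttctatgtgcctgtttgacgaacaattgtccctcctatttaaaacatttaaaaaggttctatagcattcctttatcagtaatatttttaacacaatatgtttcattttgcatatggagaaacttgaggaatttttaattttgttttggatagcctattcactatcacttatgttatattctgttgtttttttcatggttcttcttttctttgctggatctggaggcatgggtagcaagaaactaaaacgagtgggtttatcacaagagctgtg
Matches to CCGGAAG or its complement occur in the promoters of BLM, ERCC4 and RAD50, and matches to CCAAT or its complement in that of BLM. FANCL and RAD51B hold no match to any of the 6 motifs searched. The GC content is 63.0% for FANCL, 61.3% for BLM, 63.7% for ERCC4, 66.7% for RAD50 and 32.3% for RAD51B, the lowest of the members.

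R-loop peaks lay at nearly all of these genes in senescent and proliferating cells and at few in quiescent cells. A gene-end peak is one that shares at least 1 bp with the 1000 bp on either side of an annotated gene end. Such a peak was found at 32 of the 34 genes in senescent cells, against 70.3% of all protein-coding genes, at 9 in quiescent cells, against 27.7%, and at 33 in proliferating cells, against 75.9%. The quiescent share of members is thus near that of all genes. A peak anywhere in the locus, the gene extended by 1000 bp both ways, occurred in 33, 10 and 34 members in senescent, quiescent and proliferating cells, against 80.3%, 34.4% and 83.4% of all genes. In total the members held 102 senescent, 13 quiescent and 127 proliferating peaks.

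The share of the locus under peaks was lower in senescent than in proliferating cells for 33 of the 34 genes, and SLX4 was the exception. Of all protein-coding genes 72.5% were lower and 13.2% higher, and of genes with a proliferating gene-end peak 88.8% were lower, so most genes with a peak share this direction. The mean share of a member locus under peaks was 4.61% in senescent, 0.447% in quiescent and 9.47% in proliferating cells, with SDs over the 34 genes of 6.98, 1.57 and 13.2, and the medians were 1.86%, 0% and 3.78%. Over all genes the means were 8.04%, 0.985% and 12.7% and the medians 3.20%, 0% and 5.90%. The members are longer, with a median length of 47452 bp against 24482 bp over all genes, and what part of their lower shares comes with length was not tested. The senescent mean was 0.487 of the proliferating mean over the members, against 0.634 over all genes. This order turns round when each list is shortened to its 9736 highest-scoring peaks, where the ratio was 0.866 over the members and 0.484 over all genes.

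Quiescent coverage was lower than proliferating coverage in all 34 genes, against 83.4% of all genes (0.0101% were higher), and the ratio of the means was 0.0472 over the members and 0.0777 over all genes. Senescent coverage was higher than quiescent coverage in 33 genes, against 79.8% of all genes (0.696% were lower), and FANCL had none in either. A quiescent gene-end peak stood in for a missing proliferating one in 0 members, against 0.00505% of all genes, and for a missing senescent one in 0, against 0.328%. The 3 comparisons use the same 3 libraries and are not independent of each other.

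A window of 1000 bp on each side of the annotated start lets genes of unlike length be set side by side, and 29 of the 34 genes have such a start in the table used. The mean share of the window under peaks was 34.7% in senescent, 3.76% in quiescent and 71.0% in proliferating cells, with SDs over the 29 genes of 19.3, 9.90 and 21.5, against 33.0%, 6.47% and 52.8% over all 15813 genes with a start. Senescent coverage was lower than proliferating coverage in 27 genes, against 66.7% of all genes and 89.4% of those with a proliferating peak there. It was higher in ERCC4, against 8.65% of all genes, and RAD51B was at 0 in both. The ratio of the senescent to the proliferating mean was 0.488 over the members and 0.624 over all genes, and 0.616 over the genes with a proliferating peak in the window. The 28 members with such a peak averaged 35.9% in senescent and 73.5% in proliferating cells, against 43.6% and 70.7% over all genes with one, so they stood below those genes in senescent cells and near them in proliferating cells.

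A senescent peak reached the start window of 26 genes, against 68.1% of all genes, a quiescent peak that of 5, against 27.5%, and a proliferating peak that of 28, against 74.7%. The window was wholly under peaks in none of the members in senescent or quiescent cells and in 5 in proliferating cells, against 1.71%, 0.00632% and 12% of all genes. These 5 are BARD1, BRCA1, XRCC3, FANCE and RMI1.

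**Figure D1:**
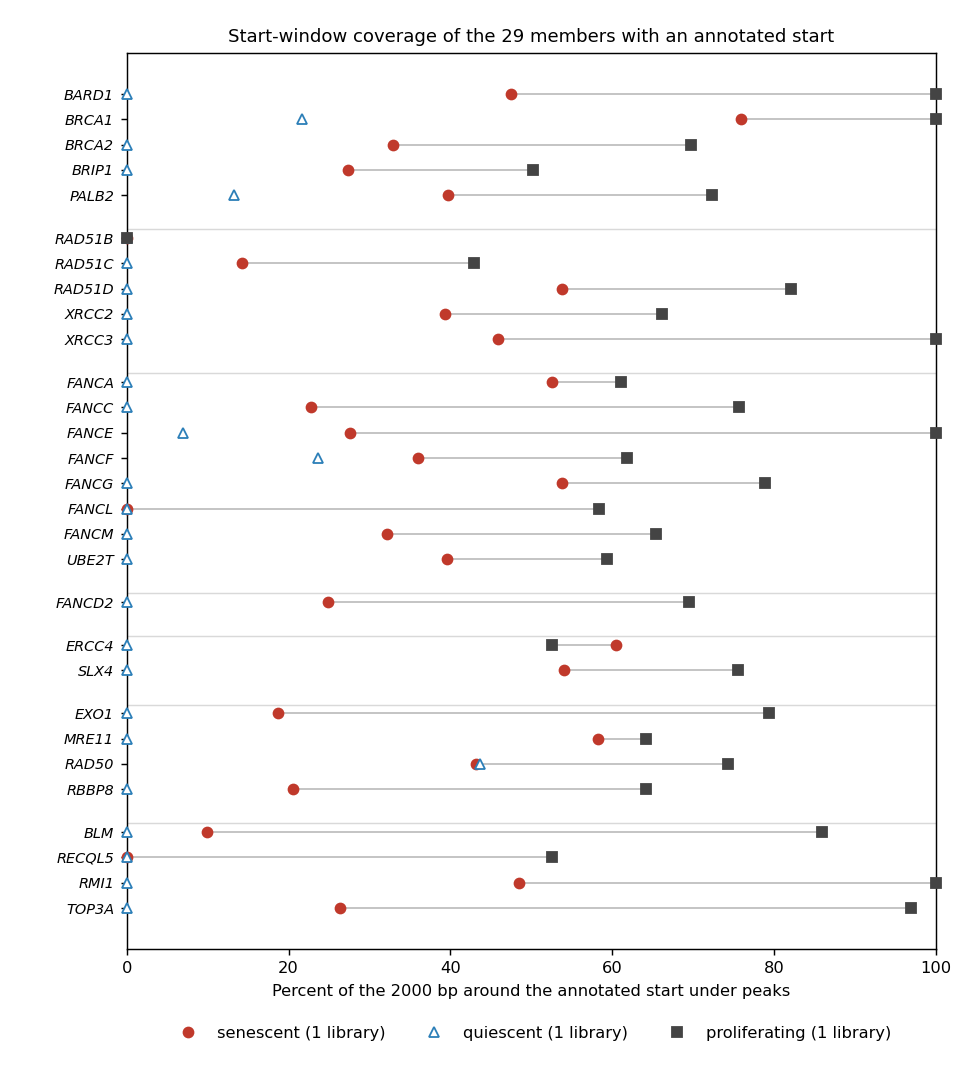
Percent of the 2000 bp around the annotated start under peaks (horizontal axis) for the 29 members with a start (rows, grouped by role), in senescent, quiescent and proliferating cells, 1 library each. Proliferating values lie to the right of senescent ones in 27 genes, ERCC4 has the senescent value further right, and all 3 symbols of RAD51B lie on each other at 0.

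The widest peak at each start had a median width of 793.5 bp in senescent, 433 bp in quiescent and 1574 bp in proliferating cells, against 952, 394 and 1732 bp over all genes. A peak lay across the start itself in 13 of the 29 genes in senescent, 2 in quiescent and 27 in proliferating cells (44.8%, 6.90% and 93.1%), against 40.6%, 10.5% and 65.3% of all genes. At 150 bp downstream of the start these counts were 20, 4 and 28 (69.0%, 13.8% and 96.6%), against 45.0%, 12.4% and 65.8%. At 450 bp upstream they were 6, 0 and 21, and in percent of the 29 genes 20.7%, 0% and 72.4%, against 32.6%, 6.21% and 52.9% of all genes.

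Over the 1000 bp upstream of the start the mean share under peaks was 20.7% in senescent, 1.03% in quiescent and 59.5% in proliferating cells, against 29.2%, 5.85% and 48.5% over all genes. The senescent to proliferating ratio there was 0.347 over the members and 0.603 over all genes. Over the 1000 bp downstream the means were 48.7%, 6.50% and 82.5%, against 36.7%, 7.09% and 57.1% over all genes, and the ratio was 0.590 over the members and 0.642 over all genes. Upstream coverage was lower in senescent cells in 26 genes, against 58.2% of all genes, and higher in FANCF and MRE11, against 9.65%. Downstream coverage was lower in 22, against 57.3%, higher in BRIP1, FANCM and ERCC4, against 8.23%, and equal in 4. Of the 28 genes with upstream coverage in proliferating cells 9 had none in senescent cells, against 23.2% of all such genes. Among the 9 were BARD1, FANCE and FANCM, each with the whole 1000 bp under peaks in proliferating cells.

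**Figure D2:**
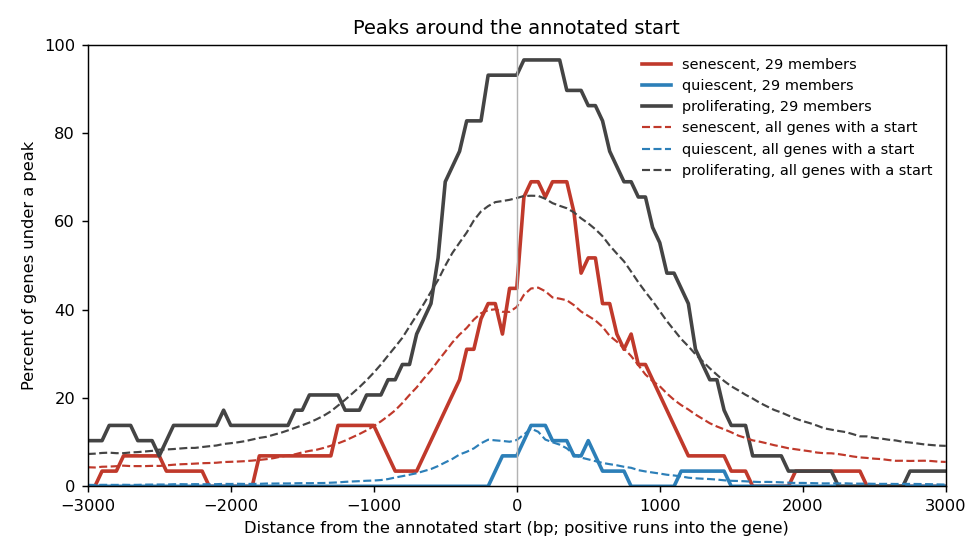
Percent of genes with a peak over each position from 3000 bp upstream to 3000 bp downstream of the annotated start (horizontal axis, steps of 50 bp), for the 29 members and for all genes, in senescent, quiescent and proliferating cells. The senescent curve of the members is highest downstream of the start, at 20 of 29 genes 150 bp after it, and drops to 6 of 29 at 450 bp upstream, where the proliferating curve stands at 21 of 29.

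The start-window ratio over the members stayed below that over all genes in each shortened list. It was 0.371 against 0.537 with the upper part of each list by score, from its median upward, 0.205 against 0.394 with equal numbers of peaks, 0.503 against 0.680 with equal covered length, and 0.713 against 1.02 without peaks over 2000 bp. The last pair differs from the others in that the mean over all genes was no longer lower in senescent cells. Even so, 6561 of these genes were lower in senescent cells and 4661 higher. With equal numbers of peaks the ratio rests on few members, of which 8 were lower and 1 higher in senescent cells. The other members were equal in that setting. Of all 15813 genes with a start 4466 were lower and 1117 higher there, so the share of members that were lower is near that of all genes. The locus ratio there stood the other way, at 0.866 over the members against 0.484 over all genes. These settings for the start window were chosen after the data had been looked at.

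Of the 102 senescent peaks 79 (77.5%) overlapped a proliferating peak, against 71.3% of the senescent peaks in loci of all genes. Of the 127 proliferating peaks 74 (58.3%) overlapped a senescent one, against 52.1% over all genes. The 53 proliferating peaks without a senescent partner lay in 19 genes, 24 of them in RAD51B and only 6 at a gene end, and were smaller, with a median width of 431 bp and a median score of 17, against 1247.5 bp and 37.5 for those with a partner. The 23 senescent peaks without a proliferating partner lay in 9 genes, 11 of them in RAD51B and 1 at a gene end, and had a median width of 395 bp and a median score of 16.

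The BRCA group consists of BRCA1 and BARD1, which form a ubiquitin ligase, BRCA2, a mediator of strand invasion, PALB2, which links BRCA1 to BRCA2, and BRIP1, a helicase bound by BRCA1. All 5 had a peak at their start in senescent and proliferating cells, and BRCA1 and PALB2 also in quiescent cells. BRCA1 had 75.95% of the start window under peaks in senescent, 21.65% in quiescent and 100% in proliferating cells, the highest senescent value of the 29 genes. These values hold only for the annotated start used, which lies beside the gene NBR1. BARD1 had 47.5%, 0% and 100%, and its senescent peak of 1003 bp began 50 bp downstream of the start while the proliferating peak of 3785 bp reached 1584 bp upstream. BRCA2 had 32.95%, 0% and 69.7%, PALB2 39.75%, 13.3% and 72.3%, and BRIP1 27.4%, 0% and 50.25%, in the same order of states. The genes stood in the same order in senescent and in proliferating cells, apart from the tie of BRCA1 and BARD1 at 100%.

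BRCA1 (chr17:43044295-43170327, minus strand) had 1 proliferating peak over its annotated start, from 43168708 to 43172673, 3966 bp wide with a score of 54. In senescent cells the same stretch held 2 peaks, of 1705 bp (score 21) and 542 bp (score 45), and in quiescent cells 2 peaks of 394 bp (score 14) and 433 bp (score 24). The start of NBR1 on the other strand lies 82 bp away, so these peaks belong to both genes, since the peaks carry no strand. Inside the BRCA1 locus a further pair of peaks lay at one end of the lncRNA gene NBR2 (chr17:43125557-43153671), from 43124494 to 43126027 in senescent cells (score 25) and from 43124608 to 43126019 in proliferating cells (score 39), with none in quiescent cells. At 1534 bp the senescent peak there was about as wide as the proliferating one of 1412 bp. NBR2 lies on the plus strand, so this end is its start side. These peaks also lie inside BRCA1 and carry no strand, so they cannot be assigned to 1 of the 2 genes. Only 1 annotated start per gene was used, so any other start of BRCA1 inside the locus was not examined. The start-window values of BRCA1 hold for the start beside NBR1 only. A 414 bp peak was found in senescent cells only and a 195 bp peak in proliferating cells only. Over the whole locus BRCA1 had 3.06% under peaks in senescent, 0.646% in quiescent and 3.30% in proliferating cells.

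**Figure D3:**
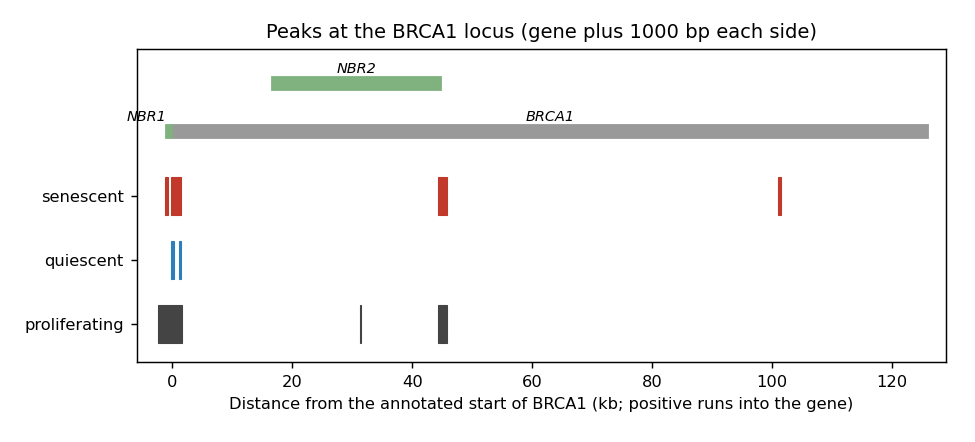
Peaks in the BRCA1 locus drawn to scale by distance from the annotated start, with the genes BRCA1, NBR1 and NBR2 and 1 row of peaks each for senescent, quiescent and proliferating cells. The single proliferating peak of 3966 bp at the shared start compares with 2 narrower peaks each in senescent and quiescent cells, and the NBR2 end has a peak in senescent and proliferating cells only.

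Over the whole locus BRIP1 had the smallest share of all members in proliferating cells, at 0.294% in senescent, 0% in quiescent and 0.539% in proliferating cells, in a gene of 184.39 kb. Its only peaks were at the start, 548 bp wide with a score of 26 in senescent cells and 1005 bp with a score of 50 in proliferating cells. The quiescent peak at PALB2 was 266 bp wide with a score of 19, inside a senescent peak of 795 bp (score 20) and a proliferating peak of 1446 bp (score 48). Over the 5 genes the mean share of the locus was 1.53% in senescent, 0.262% in quiescent and 2.58% in proliferating cells.

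The proteins of RAD51B, RAD51C, RAD51D and XRCC2 form one complex that acts in recombination, and XRCC3 pairs with RAD51C in another. RAD51D had 53.8% of the start window under peaks in senescent, 0% in quiescent and 82.05% in proliferating cells, XRCC3 45.85%, 0% and 100%, XRCC2 39.3%, 0% and 66.15%, and RAD51C 14.25%, 0% and 42.9%. All 4 had less in senescent than in proliferating cells, and none had a quiescent peak. The senescent peak of RAD51C was 285 bp wide with a score of 15, and the proliferating one 858 bp with a score of 19. The proliferating peak at the start of XRCC2 had a score of 67, and the senescent one a score of 20.

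RAD51B (chr14:67819779-68683096, plus strand) is the longest member at 863 kb, and its peaks lay mostly far from its start. Its locus held 34 senescent, 3 quiescent and 46 proliferating peaks, which covered 18062, 1188 and 33195 bp, or 2.09%, 0.137% and 3.84%. With the gene split into 10 equal parts, parts 1 to 5 held the middles of 3 senescent, 0 quiescent and 8 proliferating peaks, and parts 6 to 10 those of 30, 2 and 38. Its first annotated gene end had a 1268 bp proliferating peak (score 27) and no other, while at the last end there was a peak in each state, 324 bp wide in senescent, 243 bp in quiescent and 1078 bp in proliferating cells. The annotated start used for the promoter above lies 3762 bp inside the gene, and no peak came within 1000 bp of it in any state. Without RAD51B the mean locus ratio of senescent to proliferating cells over the other 33 members was 0.486.

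**Figure D4:**
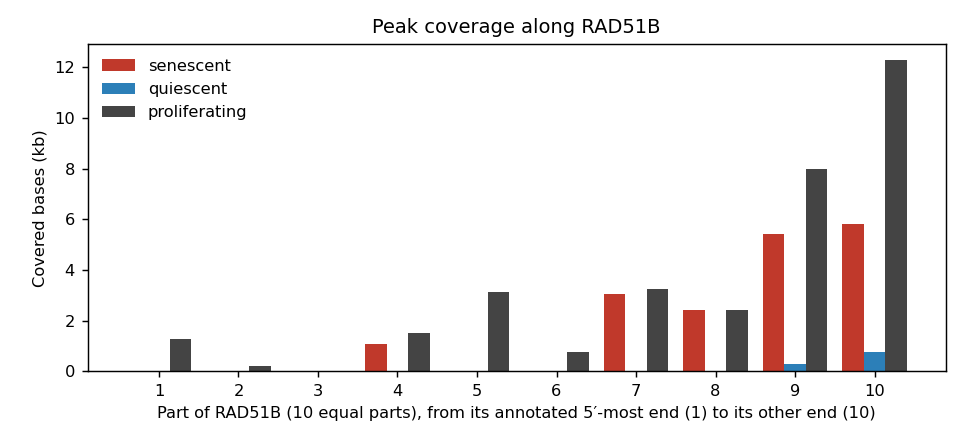
Kilobases under peaks (vertical axis) in each of 10 equal parts of the RAD51B gene (horizontal axis, from its start side to its other end), in senescent, quiescent and proliferating cells. Parts 9 and 10 hold most of the covered bases, 5411 and 5825 bp in senescent, 287 and 779 bp in quiescent and 7972 and 12291 bp in proliferating cells.

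The Fanconi core complex includes FANCA and FANCG, which bind each other, FANCC, FANCE and FANCF, FANCL, the ubiquitin ligase subunit, and FANCM, a DNA translocase that brings the complex to DNA, and UBE2T is the ubiquitin-conjugating enzyme that works with FANCL. FANCL (chr2:58159243-58241380, minus strand) was the only member with no peak in its locus in senescent cells. Its start window was under peaks for 0% in senescent, 0% in quiescent and 58.4% in proliferating cells, where a peak of 1168 bp with a score of 44 ran from 244 bp upstream to 923 bp downstream of the start. The nearest peak to that start was 188 kb away in senescent and 194 kb away in quiescent cells. FANCL was the 1 member with a gene-end peak in proliferating cells that had none in senescent cells, against 8.12% of all genes. The reverse was seen in 0 members and 2.49% of all genes. Both counts depend on the lists: the first was 10 with the part of each list from its median score upward, 6 with equal numbers of peaks and 3 with a window of 500 bp, and the reverse was 2 with equal numbers, 1 with equal covered length and 6 without peaks over 2000 bp. The same counts over all genes were not made for these settings, so what part of the moves comes with shorter lists was not tested. With 1 library a state, a peak missed by the caller and a peak that was absent cannot be told apart.

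FANCG had 53.8% of the start window under peaks in senescent, 0% in quiescent and 78.85% in proliferating cells, FANCA 52.55%, 0% and 61.1%, and UBE2T 39.6%, 0% and 59.3%. FANCF had 35.95%, 23.6% and 61.85%, FANCM 32.1%, 0% and 65.4%, FANCE 27.55%, 6.95% and 100%, and FANCC 22.8%, 0% and 75.7%. FANCE and FANCC thus showed the largest gaps of these 7 between senescent and proliferating cells, and FANCA the smallest. At FANCM the senescent peak of 642 bp began 41 bp downstream of the start and lay in the gene, while the proliferating peak of 2428 bp reached 2120 bp upstream and 307 bp downstream, so that downstream coverage was 64.2% in senescent and 30.8% in proliferating cells.

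FANCF (chr11:22622533-22625823) and FANCG (chr9:35073839-35079942) are short genes and had large shares of the locus under peaks. These were 13.6% in senescent, 8.92% in quiescent and 24.2% in proliferating cells for FANCF, and 19.8%, 0% and 30.8% for FANCG. FANCG had a peak at both gene ends in senescent cells (1668 bp, score 24, and 1258 bp, score 30) and in proliferating cells (2070 bp, score 67, and 1875 bp, score 38). FANCE had 3.29% of the locus under peaks in senescent, 0.829% in quiescent and 24.7% in proliferating cells, where a 4998 bp peak, the widest of the members, began just past its last end. That peak lay outside the gene and overlapped a senescent peak and a quiescent peak. Both of these lay beyond the locus of FANCE and add nothing to its senescent and quiescent shares. FANCC held 7 senescent, 1 quiescent and 8 proliferating peaks, and an inner peak had high scores, 59 at 229 bp in senescent cells and 62 at 599 bp in proliferating cells. Its single quiescent peak (372 bp, score 13) lay 189711 bp or more downstream of the start, over a proliferating peak and no senescent one. Over the 8 genes the mean share of the locus was 5.90% in senescent, 1.24% in quiescent and 12.5% in proliferating cells.

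FANCD2 and FANCI form the pair that receives ubiquitin and clamps onto DNA. FANCD2 had 24.85% of the start window under peaks in senescent, 0% in quiescent and 69.5% in proliferating cells, and its senescent peak of 497 bp ended 114 bp before the start. The proliferating peak there was 1390 bp wide and ran from 657 bp upstream to 732 bp downstream. FANCI had a peak in every state at the same gene end, of 1126 bp (score 19) in senescent, 175 bp (score 24) in quiescent and 1707 bp (score 57) in proliferating cells. The locus share was 0.641% in senescent, 0% in quiescent and 2.57% in proliferating cells for FANCD2, and 1.50%, 0.232% and 4.26% for FANCI. The ratio of the senescent to the proliferating mean over this pair was 0.313, the lowest of the 7 groups by role.

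The crosslink incision genes were those nearest to equal between senescent and proliferating cells. SLX4, the scaffold on which nucleases assemble (chr16:3581181-3611606, minus strand), had 5.58% of the locus under peaks in senescent, 0% in quiescent and 5.41% in proliferating cells. Its start window was nonetheless lower in senescent cells, at 54.0%, 0% and 75.55%. The difference in the locus comes with a senescent peak of 1123 bp (score 19) at the last gene end, from 3579788 to 3580910, with no proliferating or quiescent peak there. ERCC4, which encodes the nuclease subunit XPF, had 60.4% of the start window under peaks in senescent, 0% in quiescent and 52.5% in proliferating cells. In senescent cells 1 peak of 1251 bp (score 20) began 2 bp downstream of the start. In proliferating cells a peak of 653 bp (score 60) began 46 bp downstream. A further one of 471 bp (score 18) began 1025 bp downstream, outside the start window. Before the start lay a peak of 397 bp (score 72) in proliferating cells and one of 210 bp (score 26) in senescent cells. The locus share of ERCC4 was 4.27% in senescent, 0% in quiescent and 5.02% in proliferating cells. Over the pair the locus mean was 4.93% in senescent, 0% in quiescent and 5.22% in proliferating cells.

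End resection starts with the complex of MRE11, RAD50 and NBN and its cofactor RBBP8 (CtIP), and EXO1 extends it. RAD50 was the only one of the 5 genes with a quiescent peak at the start whose coverage there was as large in quiescent as in senescent cells, at 43.2% in senescent, 43.65% in quiescent and 74.3% in proliferating cells. The peaks were 864 bp (score 21), 873 bp (score 17) and 1486 bp (score 49) wide. The protein-coding gene IL5 (chr5:132541445-132556815) has an end within 1000 bp of this start. These peaks therefore cannot be assigned to RAD50 alone. Of all genes 1.58% had less coverage of the start window in senescent than in quiescent cells. MRE11 had 58.25%, 0% and 64.15% of the start window under peaks in senescent, quiescent and proliferating cells, RBBP8 20.6%, 0% and 64.15%, and EXO1 18.65%, 0% and 79.4%. MRE11 was thus near equal in senescent and proliferating cells while EXO1 was far apart. The EXO1 peak of 373 bp in senescent cells ended 126 bp before the start, and the proliferating peak of 1793 bp ran across it.

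RBBP8 had no gene-end peak in any state. Its annotated start lies 19189 bp inside the gene, and the peak at that start was 412 bp wide in senescent cells (score 26) and 1283 bp in proliferating cells (score 53). It had 0.360% of the locus under peaks in senescent, 0% in quiescent and 1.12% in proliferating cells, which places it among the 3 lowest members in senescent and in proliferating cells. NBN had 0.570%, 0% and 2.39%, from 1 gene-end peak of 304 bp (score 14) in senescent and 1 of 1273 bp (score 49) in proliferating cells.

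BLM, WRN, RECQL4 and RECQL5 are RecQ helicases, and BLM works with TOP3A, RMI1 and RMI2 to take apart joined DNA molecules without a crossover. The 4 of these genes with an annotated start had 21.2% of the start window under peaks in senescent, 0% in quiescent and 83.8% in proliferating cells on average, the lowest ratio of the groups by role at 0.253. BLM had 9.95%, 0% and 85.95%, with a senescent peak of 199 bp (score 14) that lay upstream of the start and a proliferating peak of 1757 bp (score 40) across it. TOP3A had 26.3%, 0% and 96.9%, and RMI1 48.45%, 0% and 100%. RECQL5 had no senescent peak within 1000 bp of its start, at 0%, 0% and 52.55%. Inside RECQL5, 32 kb and more downstream, a peak of 1824 bp (score 38) in senescent and 1964 bp (score 87) in proliferating cells lay over an end of the gene SMIM5 (chr17:75633434-75641406), and 99.5% of the proliferating list scored below that proliferating peak.

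RECQL4 (chr8:144511288-144517833) had the largest share of the locus under peaks of all members, 34.7% in senescent, 0% in quiescent and 52.8% in proliferating cells. Its neighbours LRRC14 and SLC33A2 end within 1000 bp of it, so its end peaks cannot be assigned to 1 gene. RMI2 (chr16:11345459-11351760) had 13.6%, 2.47% and 51.2%, from 2 senescent peaks of 616 and 510 bp, a quiescent peak of 205 bp (score 11) and 2 proliferating peaks of 1613 and 2639 bp. WRN had 0.982%, 0.182% and 1.61% of a 142.329 kb gene, and its quiescent peak of 262 bp (score 22) lay inside a senescent peak of 1417 bp and a proliferating peak of 1438 bp. The gene PURG has an end within 1000 bp of this end of WRN, so these peaks cannot be assigned to 1 gene either.

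Of the 13 quiescent peaks all 13 overlapped a proliferating peak and 11 overlapped a senescent one, against 99.6% and 94.7% of the quiescent peaks in loci of all genes. They lay in 10 genes, BRCA1, PALB2, FANCC, FANCE, FANCF, RAD51B, RAD50, FANCI, RMI2 and WRN, and had a median width of 287 bp and a median score of 17. The quiescent peak of FANCE was 139 bp wide (score 15), and that of FANCF 472 bp (score 22). Of all genes with a proliferating peak in the start window 36.9% also had a quiescent one, and of the 28 such members 5 did.

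Several members share their start region with a gene on the other strand. Among the starts in the table used, 1 per gene, a protein-coding start on the other strand lay within 1000 bp for 10 of the 29 genes (34.5%), against 12.5% of all genes. The pairs are BRCA1 with NBR1, BRCA2 with ZAR1L, MRE11 with ANKRD49, PALB2 with DCTN5, RAD51C with IGBP1C, RECQL5 with SAP30BP, RMI1 with HNRNPK, SLX4 with DNASE1, TOP3A with SMCR8 and XRCC3 with ZFYVE21, at distances from 82 bp for BRCA1 to 528 bp for RAD51C. Peaks there cannot be assigned to 1 gene. The same holds for FANCF, where the protein-coding gene GAS2 (chr11:22626002-22813055, plus strand) begins within 1000 bp of the start. GAS2 was not found by this search, so FANCF is counted among the other 19. The start window of the 10 counted genes was under peaks for 39.6% in senescent and 77.4% in proliferating cells on average, against 48.3% and 78.1% over all genes with such a start. That of the other 19 was under peaks for 32.1% and 67.6%, against 30.8% and 49.2% over all genes without one. The upstream ratio of senescent to proliferating means was 0.459 in the 10 and 0.271 in the 19, against 0.621 and 0.598 in all genes with and without such a start.

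The promoters of the members were close to those of all genes in base composition. The median GC content was 64.3% (range 32.3% to 76%) against 62.7%, and the median number of CpG dinucleotides 27 against 22 per 300 bases. GC skew, (G - C)/(G + C), over the first 50 transcribed bases had a median of 0.116 against 0.0732. Across the 29 genes GC content and start coverage in proliferating cells had r = 0.638 and rho = 0.541, and without RAD51B, which has the lowest of both, r = 0.389. In senescent cells r was 0.317 and rho 0.320, and without RAD51B r was 0.133 and rho 0.249. Over all genes r was 0.459 in senescent and 0.546 in proliferating cells. For GC skew r was -0.427 in senescent and -0.345 in proliferating cells over the members, and 0.0874 and 0.125 over all genes. These correlations describe genes of 1 library and the genes are not independent replicates.

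The motif CCGGAAG was found in 10 member promoters (34.5%), against 14.2% of all promoters of the same length. They are BLM, BRCA2, ERCC4, FANCD2, MRE11, PALB2, RAD50, RAD51D, RECQL5 and SLX4. Matches to TTTCCCGC, a site for E2F factors, which drive genes of the S phase, were found in 3 (FANCC, FANCD2 and XRCC2), or 10.3% against 2.18%, and matches to its variant TTTGGCGC in 0 against 0.892%. CCAAT was found in 11 (37.9% against 36.3%), TTTGAA, the core of the cell cycle homology region bound by the DREAM complex, in 3 (10.3% against 12.1%) and GCATGCGC, a site for NRF1, in 2 (6.90% against 4.26%). Both strands were searched, a match is a description of the letters only, and nothing about binding was measured.

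Other repair genes were lower in senescent cells too, as were most genes with a proliferating gene-end peak. Of all protein-coding genes 70.3% had a gene-end peak in senescent, 27.7% in quiescent and 75.9% in proliferating cells. The locus share was lower in senescent cells in 72.5% of all genes and higher in 13.2%. Of genes with a proliferating gene-end peak 88.8% were lower. Of 53 other genes of recombination and crosslink repair 43 had a gene-end peak in senescent, 21 in quiescent and 51 in proliferating cells, and 51 had less of the locus under peaks in senescent than in proliferating cells and 2 more. Their mean shares were 7.55%, 1.13% and 12.8%, with a senescent to proliferating ratio of 0.589. The largest gaps were at SWSAP1 (8.82% in senescent and 33.8% in proliferating cells), PSMC3IP (13.2% and 36.8%), FAAP20 (31.5% and 52.3%), EME1 (6.84% and 24.3%) and MUS81 (43.9% and 61.3%). WDR48 (3.55% and 3.41%) and RTEL1, a helicase (19.4% and 18.9%), were the 2 that were higher in senescent cells. Their start windows averaged 41.6% in senescent and 74.3% in proliferating cells, a ratio of 0.560 against 0.488 over the members.

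Of 12 genes of nonhomologous end joining 11 were lower and XRCC6 higher, at 4.59% in senescent and 4.27% in proliferating cells, with a ratio of the means of 0.530. A gene-end peak was present at 11 of them in senescent, 5 in quiescent and 12 in proliferating cells. The largest gaps were at PAXX (10.3% in senescent and 47.7% in proliferating cells), POLL (13.5% and 24.1%), POLM (20.8% and 28.7%), the ligase gene LIG4 (17.0% and 21.7%) and XRCC5, which with XRCC6 encodes the Ku heterodimer (1.0% and 5.55%). Of 18 genes of nucleotide excision repair 17 were lower and XPA higher, at 3.10% and 2.55%, with a ratio of 0.597. Gene-end peaks were at 16 in senescent, 8 in quiescent and 17 in proliferating cells. Among the largest gaps were those at XPC, which recognises damage (1.49% in senescent and 13.6% in proliferating cells), DDB2 (6.94% and 16%), UVSSA (3.97% and 10.4%) and RAD23B (1.90% and 7.93%). Start windows averaged 47.8% in senescent and 73.2% in proliferating cells for end joining, and 41.0% and 71.8% for excision repair, with ratios of 0.653 and 0.571. In proliferating cells the start windows of all 3 lists were thus as covered as those of the members. Of all genes with a proliferating gene-end peak 88.8% had a lower locus share in senescent cells. The end joining and excision repair lists are near that share. Gene-end peaks were at 70.3% of all genes in senescent, 27.7% in quiescent and 75.9% in proliferating cells.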

How the data were processed

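MapR was run on IMR90 fibroblasts with 1 RH-MNase library per state. The deposited lists give peak positions with a score by the authors, a whole number from 10 upward whose scale neither the labels nor the lists state. The submitters' processing notes name FastQC 0.11.9, Bowtie2 2.4.5, MACS2 2.2.7.1 and GRCh38, without settings or a statement on controls. No reads were processed here, and the depth is unknown. Each list is from a single library, so replicates could not be compared and no test was made.

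Genes, starts and promoters came from RefSeq tables of GRCh38. Genes on the Y chromosome, the mitochondrial genome and alternate or unplaced sequences were left out. A gene or window was counted as covered by the union of peaks, and peaks overlapped when they shared 1 bp. Overlap code in Python 3.11.15 with numpy 2.4.6 and pandas 2.3.3 was tested on simulated peaks. The members and lists were chosen with earlier results of these data known. All members are named by role. Values in full are given for those with a gene-end peak in 1 or 2 states, the 3 highest and 3 lowest in senescent and proliferating cells, those with a quiescent peak and those higher in senescent cells. Of each other repair list those with the largest differences are named, except for a gene that is not reported here; other values were chosen after they were seen. Alternatives were a cut at the median score, equal numbers of peaks, equal covered length, windows of 500 and 3000 bp, a 50% overlap and lists without peaks over 2000 bp.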

Additional observations from a re-analysis of the deposited data

How the results depend on the processing

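A value was taken to have moved when it differed by more than 1.5 times from the value as deposited; of 99 values recomputed 70 stayed within that bound and 29 moved. No ratio of means passed 1 among the members. From the median score upward 91.2% of members had a lower locus share in senescent than in proliferating cells, against 68.2% of all genes. With equal numbers of peaks 29.4% did, against 33.9%. With equal covered length 85.3% did, against 53.0%, and without peaks over 2000 bp 76.5%, against 53.2%. Of all 19821 genes 2322 had a higher locus share in senescent cells from the median score upward and 2442 with equal numbers. With equal covered length 5937 did, and without peaks over 2000 bp 6247. Gene-end peaks in these settings were counted for the members only. With the part of each list from its median score upward, 4 members had a quiescent gene-end peak, 10 had one in proliferating and none in senescent cells, 2 were higher in senescent than in proliferating cells, and the quiescent mean was 0.285%. With 9736 peaks in each list, gene-end peaks were at 5 members in senescent and 9 in proliferating cells, 6 had one in proliferating and none in senescent cells and 2 the reverse, 10 were lower and 4 higher in senescent cells, the means were 1.07% in senescent and 1.24% in proliferating cells, and the ratios to proliferating cells were 0.866 for senescent and 0.361 for quiescent cells. With the proliferating list cut to 40460 peaks, which cover as much as the senescent ones, 1 member had a gene-end peak in senescent and none in proliferating cells, and 5 were higher. With a gene-end window of 500 bp, 3 had a gene-end peak in proliferating and none in senescent cells. Without peaks over 2000 bp, 6 had one in senescent and none in proliferating cells, 8 were higher in senescent cells, the proliferating mean was 5.42%, and the ratios were 0.804 and 0.0825 for senescent and quiescent cells. At an overlap of 50% of both peaks 38 senescent and 37 proliferating peaks had a partner. The upstream ratio at the starts was 0.225, 0.138 and 0.565 with the median score, equal numbers and no broad peaks, and the downstream one 0.255 with equal numbers. Over all genes these ratios were 0.521, 0.374 and 1.01 upstream and 0.411 downstream. The senescent locus ratio without peaks over 2000 bp was 0.924 over all genes. The cause was not tested. No paired analysis was possible because each group has 1 library. Unknown depth limits every count.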
